A study of Mus musculus with 3 samples.

Results

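The replication-dependent histone genes encode the bulk histones that package newly copied DNA. They were taken here as every mouse gene whose symbol begins Hist1h to Hist4h followed by a histone class and that has at least 1 protein-coding transcript in the annotation. This gave 67 genes of 55536, namely 6 of linker histone H1, 18 of H2A, 18 of H2B, 12 of H3 and 13 of H4. A further 3 genes carry such a symbol without a protein-coding transcript and were left out. The choice used the symbols and transcript types alone and no measured value.

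Histone messages of this family are unusual among the messages of animal cells: their ends are cut just after a short stem-loop that the stem-loop binding protein SLBP holds, and they carry no poly(A) tail. They are made mainly while DNA is being copied and are degraded when copying stops. Some of these genes also have a downstream poly(A) signal, and tailed or spliced forms have been described in cells that no longer divide. A library selected for poly(A) tails therefore reads such forms, and not the stem-loop-ended messages, as far as the selection works.

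Polyadenylated RNA was sequenced from 3 libraries of a single group, labelled biological replicates 1, 2 and 3. The cells were macrophages grown from the bone marrow of C57BL/6J mice, with no other allele or agent named, and had been exposed to the stimulus at 100 ng/mL for 180 min. The labels name the stimulus both as lipid A, a part of bacterial lipopolysaccharide, and as lipoprotein A, described as a protein, and which was used was not settled here. A single donor identifier is given for all 3 libraries, and age and sex were not collected, so it is not known whether the spread between replicates is that of separate animals. No unstimulated group was analysed here, so no level below is a response to the stimulus. Since the samples are bulk RNA, fewer cells making a message and less of it per cell cannot be told apart.

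Expected counts, which are estimated fragment counts, summed to 24450338, 34641026 and 60595742 over mouse genes in replicates 1, 2 and 3. Levels are given in TPM, the length-scaled share of a gene among all transcripts, on a total that is the same in every library. All 8 macrophage markers reached 1 TPM in every library, none of 5 T cell markers and none of 5 erythroid markers did, and of 5 B cell markers Cd79b alone did. Replicate 2 stood apart in neutrophil and granulocyte precursor markers, whose 9 members summed to 83.48, 714.87 and 48.56 TPM in replicates 1, 2 and 3. The defining neutrophil marker Ly6g was at 0 in all 3.

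The sequences printed here are annotated ends of detected members. A motif for the stem-loop, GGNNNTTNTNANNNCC with the first 6 bases pairing with the last 6, was searched in every transcript of the GENCODE M21 annotation, on the strand of the transcript. It lay after the stop codon in the longest coding model of 45 of the 67 members, and anywhere in 0.0755% of all 141767 annotated transcripts. On the other strand, 0.0536% of transcripts held it. Of the 21834 genes with a protein-coding transcript outside the family, 0.105% held it. The stem-loops of detected members read as follows, 5′ to 3′ on the strand given, in the mm10 assembly, with the motif in capitals.
Hist1h1c, chr13:23739505-23739534, plus strand: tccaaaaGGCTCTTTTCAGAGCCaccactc
Hist3h2a, chr11:58955165-58955194, plus strand: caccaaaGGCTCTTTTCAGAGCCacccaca
Hist2h2aa1, chr3:96246025-96246054, plus strand: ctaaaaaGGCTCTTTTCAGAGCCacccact
Hist2h2aa2, chr3:96239777-96239806, minus strand: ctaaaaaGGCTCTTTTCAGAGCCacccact
Hist2h3c2, chr3:96238478-96238507, minus strand: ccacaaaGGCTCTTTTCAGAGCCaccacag
Hist1h2ap, chr13:21833026-21833051, minus strand: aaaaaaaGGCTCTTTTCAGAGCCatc
Hist1h4i, chr13:22040959-22040988, minus strand: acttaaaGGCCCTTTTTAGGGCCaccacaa
The motif took 8 forms over the 45 models. The form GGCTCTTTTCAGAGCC, that of the H1, H2A and H3 members above, was the most frequent, with 25 members of H1, H2A, H2B and H3, detected and undetected. All 12 H4 models with a motif held forms seen in no other class, and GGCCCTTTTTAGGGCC of Hist1h4i recurs in Hist2h4, which was not detected.

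The second set of ends shows where 4 of the detected models carry a poly(A) signal. The hexamers AATAAA and ATTAAA were searched in the last 50 bases of each longest coding model, on its own strand, and are shown in capitals.
Hist1h1c, chr13:23740334-23740363, plus strand: atgcttctAATAAAaagcgtttagttttca
Hist3h2a, chr11:58956789-58956818, plus strand: atatgcccAATAAAataagagtacgtgtat
Hist1h4i, chr13:22040636-22040664, minus strand: ctgtttacATTAAAagtattctatgctaa
Hist2h2be, chr3:96223709-96223738, plus strand: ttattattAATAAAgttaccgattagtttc
The H2B gene Hist1h2bc has a different layout, a spliced model without the motif. Its first exon ends 9 bases after the stop codon, which stands in capitals here.
Hist1h2bc, chr13:23684610-23684621, plus strand: TGAtcctgccaa

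Most of the family was at or near 0 in the polyadenylated RNA, while a few members were well above the median of the family. A gene was called detected where it reached 1 TPM in all 3 libraries, and 10 of the 67 members did. The same threshold was met by 42.8% of the 21901 mouse genes with a protein-coding transcript, which is 9380 genes. The median member stood at a mean of 0.08 TPM. No count at all was seen for 21 members in any library, and a count of 0 allows up to 3 counts of the total, or 1.23e-05%, 8.66e-06% and 4.95e-06% of the counts of replicates 1, 2 and 3. That limit covers counting error only, and not fragments that fit more than 1 gene. At least 50% of the 75-base stretches were found in no other gene for 5 of the 10 detected and 31 of the 57 undetected models.

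The whole family summed to 440.87, 288.87 and 403.23 TPM in replicates 1, 2 and 3, a mean of 378 ± 79.2 (SD, n = 3). It was lowest in replicate 2. A group of 5 genes held 90.9% of it, namely Hist1h1c, Hist1h2bc, Hist2h2aa2, Hist2h2aa1 and Hist3h2a, and these were also the only members at 10 TPM or more in every library. The 57 members that were not detected held 2.61%, on 444.6 expected counts in all 3 libraries together. No member reached 100 TPM in every library.

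**Figure D1:**
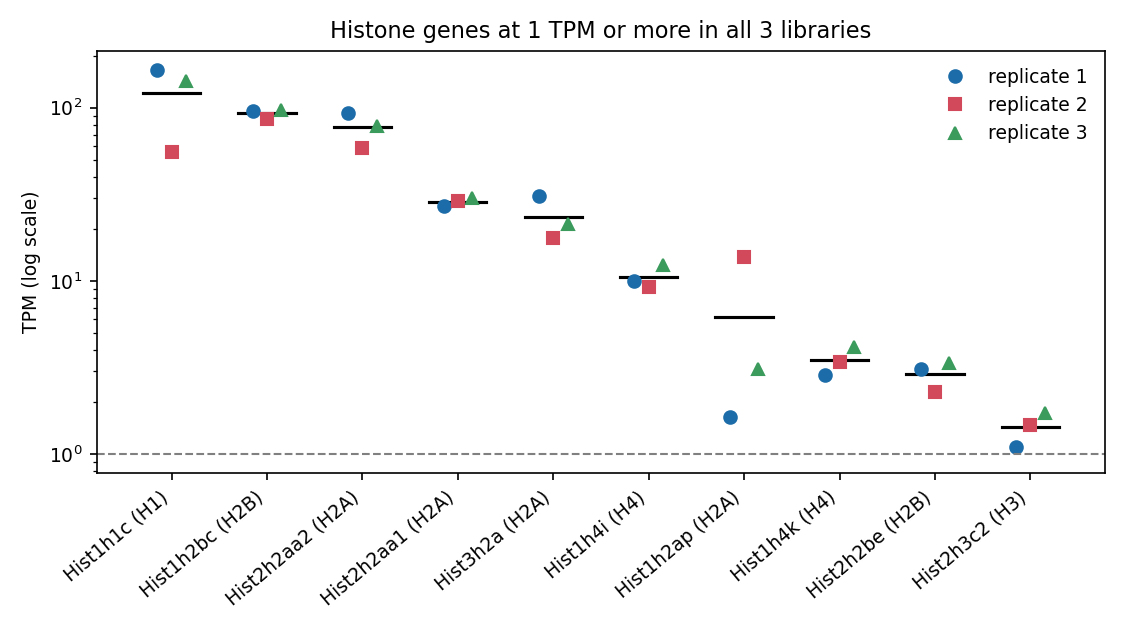
TPM on a log scale (y axis) of the 10 histone genes that reached 1 TPM in all 3 libraries (x axis, with the histone class), by library. Black bars are means of 3 libraries and the dashed line is 1 TPM; Hist1h1c is lowest and Hist1h2ap highest in replicate 2.

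The linker histone class came from 1 gene. Hist1h1c (ENSMUSG00000036181.2, chr13:23738808-23740367, mm10, plus strand, a single exon) encodes a linker histone that binds the DNA entering and leaving the nucleosome. It stood at 165.38, 55.70 and 143.42 TPM in replicates 1, 2 and 3, on 3459, 1648 and 7244 expected counts. Replicate 2 was lowest, and the highest library exceeded it 2.97-fold. It made up 99.8% of the H1 level, and the other 5 H1 genes ran from 0 to 0.21 TPM in single libraries. Among those, Hist1h1t, the linker histone gene of male germ cells, and Hist1h1a had 0 counts in every library of the gene quantification. The second quantification listed Hist1h1a at 0.0770 TPM in replicate 2.

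H2A had the most detected members, 4 of 18, and also the most members without a count in the gene quantification, 10 of 18. Of those 10, only Hist1h2aa and Hist2h2ac had most of their 75-base stretches in no other gene, at 82.6% and 65.5%. The lowest were Hist1h2ao at 6.90% and Hist1h2ah at 8.46%. A count of 0 in such genes need not mean absence, since their fragments may have been assigned to another copy. Hist2h2aa2 (ENSMUSG00000063954.7, chr3:96239749-96240276, minus strand) stood at 93.54, 58.73 and 78.63 TPM and Hist2h2aa1 (ENSMUSG00000064220.6, chr3:96245497-96246082, plus strand) at 26.91, 29.01 and 30.01 TPM. Both encode the same core histone protein from neighbouring, inverted copies: their coding sequences of 393 bases differ at 0 positions, and no stretch of 75 bases in either model is found in that gene alone. The split between them is therefore uncertain, and their sum, 120.45, 87.74 and 108.64 TPM (106 ± 16.6, SD, n = 3), is the firmer value. The sum still depends on how fragments were divided with Gm20634, which overlaps Hist2h2aa1 on the same strand.

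Hist3h2a (ENSMUSG00000078851.4, chr11:58954685-58956830, plus strand), an H2A gene of the small Hist3 cluster, stood at 30.85, 17.59 and 21.23 TPM. It was lowest in replicate 2, as were Hist1h1c and Hist2h2aa2. Hist1h2ap (ENSMUSG00000094777.2, chr13:21833026-21833507, minus strand), an H2A gene of the large Hist1 cluster, showed the opposite order, with 1.63, 13.81 and 3.08 TPM on 6.01, 64.78 and 25.28 expected counts. Replicate 2 exceeded replicate 1 by 8.47-fold, and the mean of 6.17 ± 6.65 TPM (SD, n = 3) became 2.36 TPM without replicate 2. Its coding sequence is identical to that of Hist1h2ao, to which the gene quantification gave no count.

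H2B was also led by 1 gene. Hist1h2bc (ENSMUSG00000018102.5, chr13:23684199-23692908, plus strand) encodes a core histone that pairs with H2A, and stood at 95.33, 86.28 and 97.19 TPM. The 3 libraries lay within 1.13-fold of each other, and the gene held 93.6% of the H2B level. The other detected H2B gene, Hist2h2be (ENSMUSG00000068854.7, chr3:96221119-96223738, plus strand), stood at 3.11, 2.28 and 3.34 TPM. Of the 18 H2B genes, 12 had counts without being detected, and Hist1h2bg came closest by its mean, with 2.37, 0.59 and 2.76 TPM.

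H3 and H4, the core histones that form the central tetramer of the nucleosome, were lowest. Hist2h3c2 (ENSMUSG00000081058.5, chr3:96238108-96239127, minus strand) was the only H3 gene of 12 to be detected, at 1.09, 1.47 and 1.71 TPM. Its neighbour Hist2h3c1, with an identical coding sequence of 411 bases, had 0.86, 0.90 and 0.66 TPM, so their division is uncertain as well. Together they stood at 1.95, 2.37 and 2.37 TPM. Of 13 H4 genes, Hist1h4i (ENSMUSG00000060639.5, chr13:22040636-22041362, minus strand) had 10.02, 9.21 and 12.38 TPM and Hist1h4k (ENSMUSG00000064288.4, chr13:21750194-21750505, minus strand) 2.87, 3.40 and 4.16 TPM. The level of Hist1h4k rests on 3.73, 4.96 and 11.13 expected counts. Its model is the coding sequence alone, 312 bases long, and short models give a high TPM per count.

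Added up by class, H2A made up 36.7 ± 4.62% of the family's TPM (SD, n = 3), H1 30.9 ± 10.03%, H2B 26.9 ± 4.30%, H4 4.70 ± 1.16% and H3 0.823 ± 0.277%. The first 3 classes overlapped between libraries: H1 ran from 19.3% in replicate 2 to 37.6% in replicate 1, and H2A from 33.3% in replicate 3 to 42.0% in replicate 2. H4 lay below those 3 and above H3 in every library. The order of the first 3 depends on replicate 2 and on length scaling. H1 lay above H2A in replicates 1 and 3, and without replicate 2 H1 held 36.6% and H2A 34.1%. By expected counts alone, H1 held 45.4 ± 11.2%, H2B 28.8 ± 7.34% and H2A 23.1 ± 3.65% (SD, n = 3).

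By cluster, 5 of 54 Hist1 genes on chromosome 13 were detected, 4 of 10 Hist2 genes on chromosome 3, 1 of 2 Hist3 genes on chromosome 11 and 0 of 1 Hist4 gene on chromosome 6. The shares of the family's TPM were 64.2 ± 2.21% for Hist1, 29.6 ± 2.05% for Hist2 and 6.21 ± 0.849% for Hist3 (SD, n = 3). In the Hist1 cluster Hist1h1c alone held 49.9% of the TPM.

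**Figure D2:**
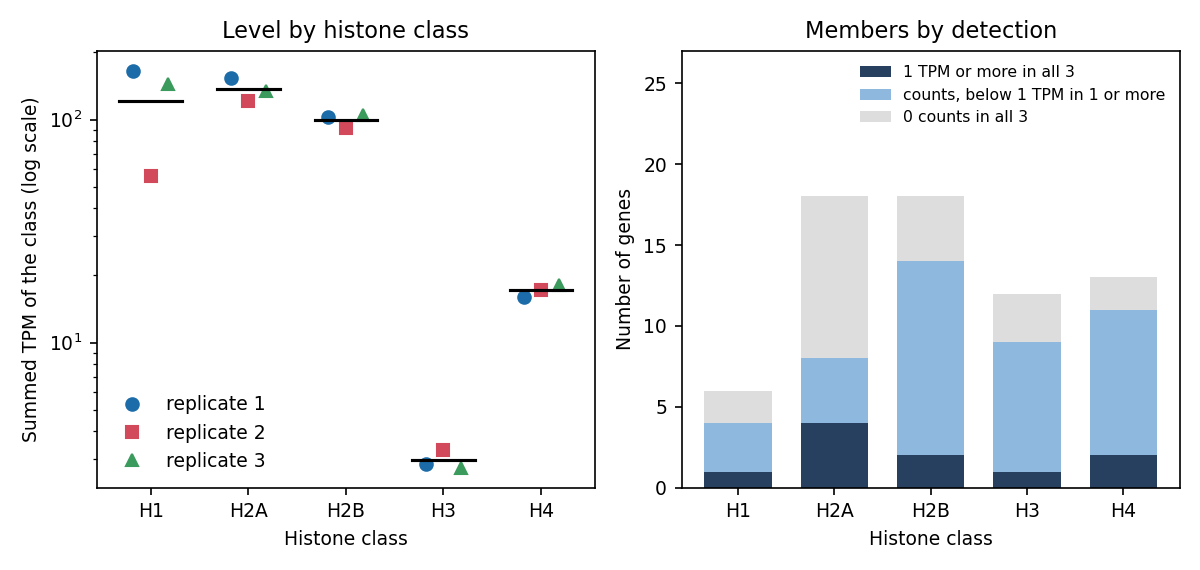
Left, summed TPM (log scale) of the histone genes of each class by library, with means of 3 libraries as black bars; right, number of genes of each class by detection. H1, H2A and H2B lie above H4 and H3 in all 3 libraries. In the gene quantification 10 of 18 H2A genes have 0 counts in all 3.

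The members around the threshold show how the count of 10 arose. Just above it by their lowest library were Hist2h2be, Hist1h2ap and Hist2h3c2. Just below were Hist1h4h, with 1.86, 2.41 and 0.67 TPM, Hist2h3c1, and Hist1h2ae, with 0.80, 0.63 and 0.91 TPM. In total 36 members had counts without being detected, of which 14 had counts in a single library. Their mean levels ran from 0.00333 to 1.91 TPM with a median of 0.103 TPM, on 1 to 94.3 expected counts over the 3 libraries.

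The annotated ends of detected and undetected members overlapped in layout. The stem-loop motif lay after the stop codon in 7 of the 10 detected and 38 of the 57 undetected models. Models ran 100 bases or more past the motif in 4 of 10 and 19 of 57, and a poly(A) hexamer lay near the end in 4 of 10 and 13 of 57. The median model length was 873.5 bases for detected and 530 bases for undetected members. These counts are descriptions of the annotation, without a test, since the length of a model also enters its TPM.

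Some layouts stand out member by member. The models of Hist1h1c, Hist3h2a and Hist1h4i pass the stem-loops printed above by 840, 1643 and 330 bases and end within 50 bases of the hexamers printed above. Altogether 12 members have a model of this kind, with the motif, 100 bases or more beyond it and a hexamer, and 9 of them were not detected. The highest of those 9 was Hist2h3c1 at a mean of 0.807 TPM, and the lowest, Hist1h1t, had no count. Hist4h4 passes its stem-loop by 2445 bases and had 1 count in all.

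Conversely, Hist2h2aa1 and Hist2h2aa2 were among the highest members although their models stop 35 bases after the motif and hold no hexamer near the end. The model of Hist1h2ap stops 3 bases after it. Hist1h2bc holds no motif in its spliced model, whose second exon (chr13:23692176-23692908) makes up 733 of the 742 bases after the stop codon. Hist2h2be holds none in the 2192 bases after its stop codon. Of the 22 models without the motif, 15 end within 15 bases of the stop codon, where it could not lie; the other 7 are those of Hist1h2bc, Hist2h2be, Hist1h2bp, Hist1h2bq, Hist1h2br, Hist1h1a and Hist2h3b.

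**Figure D3:**
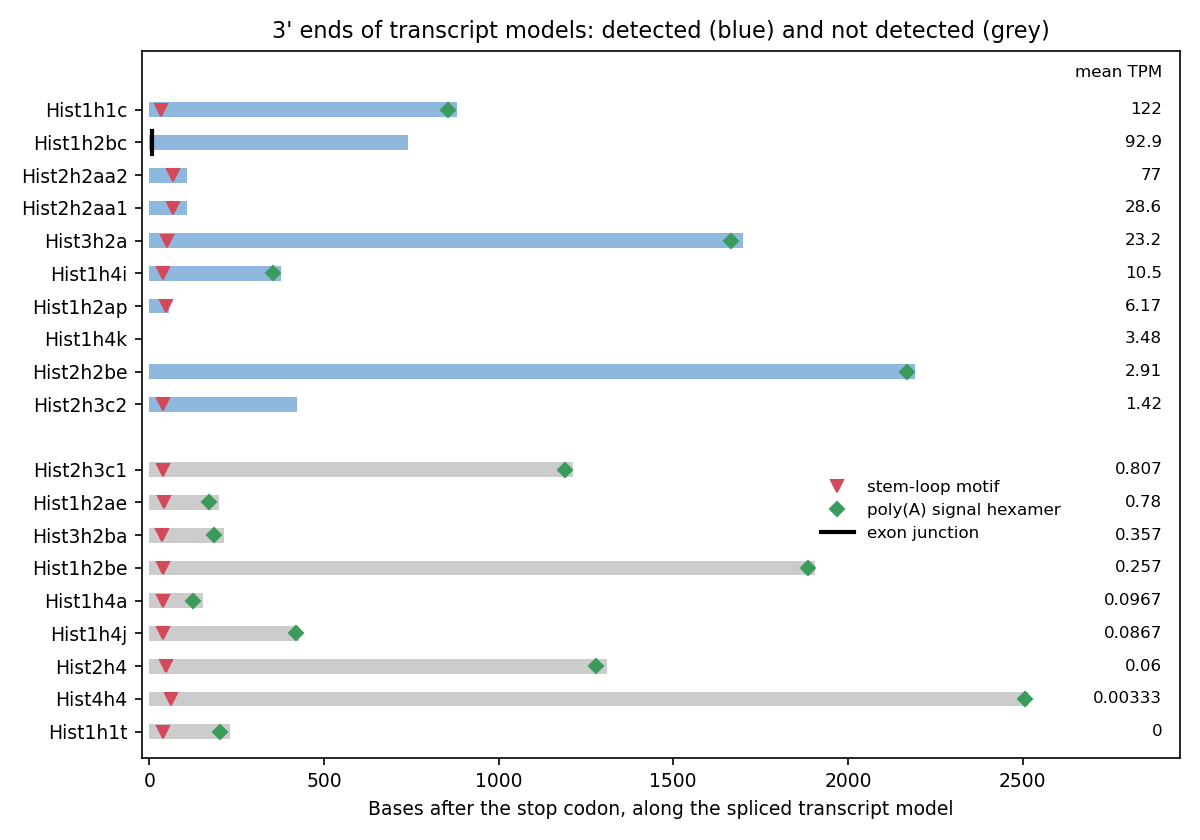
Length of the transcript model after the stop codon, in bases, for the 10 detected members (blue) and 9 undetected members with motif, extension and hexamer (grey); triangles mark the stem-loop motif, diamonds the poly(A) hexamer, the black line an exon junction, and the mean TPM stands at the right. Hist1h4k has no base after the stop codon, and models of similar layout appear in both sets.

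By level, 63.8 ± 5.73% of the family's TPM (SD, n = 3) lay in transcript models longer than 1000 bases, with 67.6%, 57.2% and 66.6% in replicates 1, 2 and 3. With a limit of 1500 bases the share was 38.1 ± 10.04% (SD, n = 3). Hist1h2bc, Hist1h1c and Hist3h2a have models of 1156, 1560 and 2146 bases.

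A second quantification of the same libraries, made by the authors from the reads and an index without the alignment, gave lower means for 4 of the 5 highest genes and a higher one for Hist2h2aa1, at 35.5 against 28.6 TPM. The family summed to 283 ± 39.7 TPM (SD, n = 3). It detected 8 members, all of them among the 10, and lost Hist1h2ap and Hist2h3c2. The pair Hist2h2aa1 and Hist2h2aa2 had 86.1, 63.2 and 68.8 TPM in sum, and Hist2h2aa1 took 48.8% of it where the gene quantification gave it 27.1%. The largest differences of mean level, on the log2(TPM + 0.1) scale and as second minus first, were -3.18 for Hist2h3c1, which the second quantification listed at 0, 1.53 for Hist1h4n and 1.48 for Hist1h3i. Hist1h4n has an identical coding copy in Hist1h4m.

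**Figure D4:**
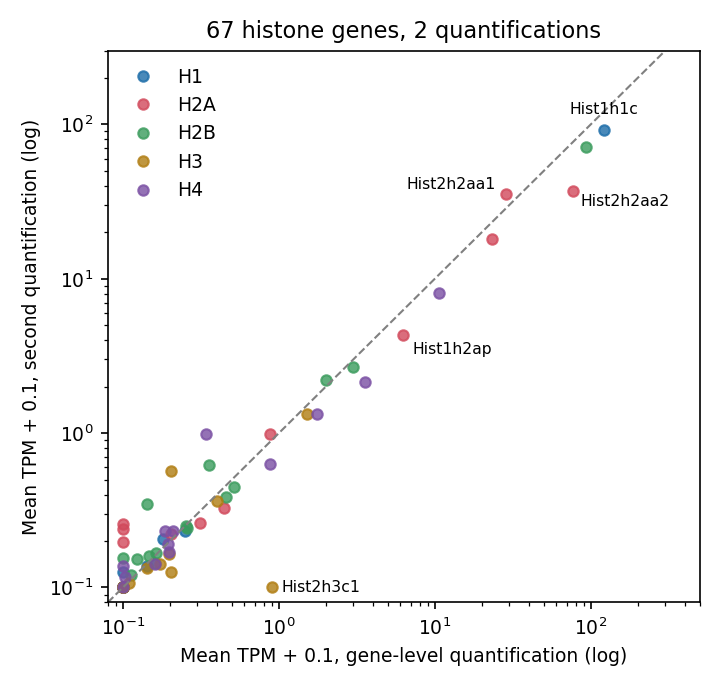
Mean TPM plus 0.1 over 3 libraries of the 67 members in the gene quantification (x axis) and in the second quantification (y axis), both on log scales, coloured by class; the dashed line marks equal values. Hist2h2aa2 lies below the line and Hist2h2aa1 on the other side of it, and Hist2h3c1 is at 0 on the y axis.

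The libraries of the group were compared with each other by a chi-square test of equal rates per gene on expected counts, with Benjamini-Hochberg adjustment over all 14580 genes with 10 counts or more. It tests libraries and not a condition. Of 20 members with enough counts, 9 departed from equal rates at an adjusted p of 0.05, of which 7 were detected members and the others were Hist1h2bg and Hist1h3d. Among all genes tested 68.9% did. The adjusted p in this chi-square test was 2.91e-36 for Hist3h2a, 5.52e-16 for Hist2h2aa2, 1.53e-13 for Hist1h2ap, 6.65e-11 for Hist1h2bc, 1.48e-04 for Hist2h2be and 0.00956 for Hist1h4i. Hist1h1c, the remaining one, had the lowest value of the 10. Hist2h2aa1, Hist1h4k and Hist2h3c2 did not pass, with adjusted p of 0.387, 0.844 and 0.295 in the chi-square test. Their libraries lay within 1.57-fold of each other. The calls for Hist2h2aa1 and Hist2h2aa2 rest on how the gene quantification divided the pair: in the second quantification they stood at 21.7, 43.2 and 41.6 TPM and at 64.4, 20.0 and 27.2 TPM in replicates 1, 2 and 3. Without replicate 2, 4 of 19 members departed, against 46.9% of all genes tested.

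Genes of DNA replication and S phase, the part of the cell cycle in which this family is made, had medians of 1.88, 5.10 and 2.61 TPM in replicates 1, 2 and 3. Of these 31 genes, 21 were detected and 25 were highest in replicate 2, and 28 departed in the chi-square test, against 68.9% of all genes tested. The share of all genes highest in each replicate was not counted, so such counts here and below have no baseline. Pcna, the sliding clamp of DNA polymerase, stood at 207.63, 354.98 and 269.88 TPM, and Mcm6, a subunit of the replicative helicase, at 16.89, 27.36 and 19.82 TPM. Mki67, a marker of cycling cells, had 28.54, 26.27 and 26.89 TPM and was not highest in replicate 2. These genes are the 3 highest of the list by mean. Lower in the list, Top2a stood at 2.25, 10.69 and 1.87 TPM and Ccna2 at 0.33, 4.09 and 0.35 TPM. Of the 31 genes, 2 were highest in replicate 1 and 4 in replicate 3.

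Among the detected histone genes Hist1h2ap was the only one highest in replicate 2, while 3 were highest in replicate 1 and 6 in replicate 3. This order holds for the gene quantification: in the second, Hist1h2bc (66.4, 74.6 and 73.4 TPM), Hist2h2aa1 and Hist1h4k (1.97, 2.16 and 2.03 TPM) were highest in replicate 2 as well. The neutrophil markers moved with Hist1h2ap too: 8 of 9 were highest in replicate 2, and S100a9, a calcium-binding protein of granulocytes, stood at 47.10, 431.80 and 25.98 TPM. The part of either list in the level of Hist1h2ap was not tested. Below the 5 highest members, the family summed to 28.86, 41.56 and 32.75 TPM, and without Hist1h2ap to 27.23, 27.75 and 29.67 TPM, where replicate 2 lay between the others. The undetected members summed to 10.14, 11.39 and 8.08 TPM, and 18, 27 and 24 of them had a count.

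**Figure D5:**
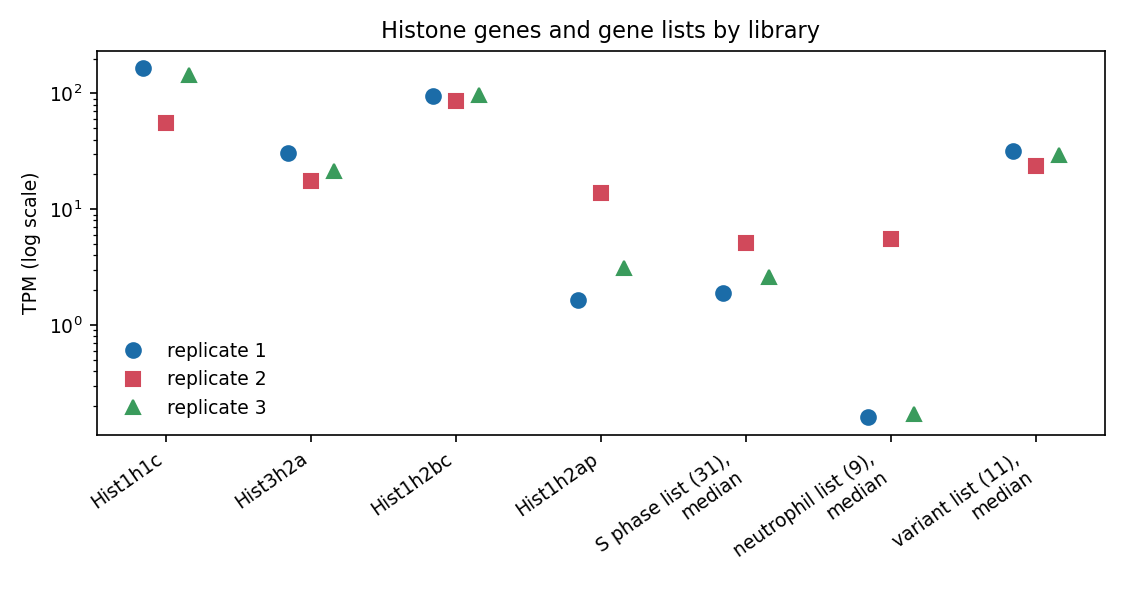
TPM on a log scale of 4 histone genes, and median TPM of 3 gene lists with the number of genes in brackets, by library. Hist1h2ap is highest in replicate 2 together with the medians of the S phase and neutrophil lists, whereas Hist1h1c and Hist3h2a are lowest there.

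Listed histone variant genes outside this family were higher by their median. Of 11 such genes 9 were detected, with medians of 31.97, 23.76 and 29.55 TPM in replicates 1, 2 and 3. H3f3b and H3f3a, which encode the replacement H3, stood at 928.72, 869.42 and 692.96 TPM and at 871.87, 664.10 and 532.87 TPM. H2afz, an H2A variant placed near promoters, stood at 265.07, 173.07 and 212.01 TPM. H3f3b alone exceeded the sum of all 67 members in each library. This compares polyadenylated RNA alone, which leaves out the stem-loop-ended messages of the family as far as the selection works. The 2 not detected were H2afy2 and H1fx. Of the 11, 8 departed from equal rates, against 68.9% of all genes tested, and 7 were highest in replicate 1.

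Most of the genes listed as factors of histone message 3′ ends and decay were detected. Of 20 genes 19 were detected, with medians of 15.035, 15.265 and 13.755 TPM, and 11 departed from equal rates, against 68.9% of all genes tested. The list is not specific to histone messages: Cpsf1, Cpsf2, Cpsf3, Cstf2, Fip1l1, Sympk and Wdr33 also belong to the general poly(A) machinery. Its other members, Srrt, Ncbp1, Ncbp2 and Npat among them, were not sorted by how specific they are. Slbp, the stem-loop binding protein gene, stood at 16.45, 17.13 and 14.58 TPM. The highest of the list were Srrt at 53.2 ± 12.3 TPM (SD, n = 3), Sympk, a scaffold of the cleavage complex, at 26.8 ± 4.63 TPM, and Lsm10, part of the small ribonucleoprotein that pairs with histone pre-mRNA, at 25.6 ± 0.947 TPM. The exception was Zfp473, a zinc finger gene of the same complex, at 0.16, 0.11 and 0.16 TPM. Of the detected genes, Lsm11 and Casp8ap2 were lowest, at 1.42, 1.43 and 1.40 TPM and at 2.41, 4.66 and 2.65 TPM.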

How the data were processed

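Per the labels, libraries of poly(A)-selected RNA were made from 1 µg of RNA. The authors deposited a gene quantification from an alignment to the transcriptome, with expected counts, TPM and FPKM per the file headers, and a second one from the reads and an index, with estimated counts and TPM. The text files deposited beside them name mm10 and GENCODE M21. The gene quantification also holds bounds of an interval on TPM, per the file headers, which were not used. Not given in the sources used here are the aligner, quantifiers, versions, strand and read length.

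The members and gene lists were chosen with earlier results of these data known. Named genes are every detected member, the highest of each class, the 3 nearest the threshold on each side, the 3 with the largest difference between quantifications, and the 3 highest of the other lists where described, with members that a count needed. A few further genes were named to show the spread of a list or of shared sequence. TPM was used as deposited; transcript values of the second quantification were added up by gene. Expected counts were rounded to whole numbers for the chi-square test, with rates from library totals times TMM factors (edgeR 4.0.16, R 4.3.3; DESeq2 1.42.0 size factors as an alternative). Counts of 14580 genes were simulated with counting noise alone, with 200 genes raised in replicate 2 and the rest at equal rates. The chi-square test recovered 63%, 75.5% and 93% of 1.5-, 2- and 4-fold changes there, and 9.35%, 3.21% and 7.46% of its calls were false. In the deposited data 68.9% of genes tested departed, so these rates need not hold for them. An exact sign-flip test over 3 libraries cannot go below p = 0.25, so none was run. Entries with numeric identifiers (26248) and control sequences stayed out of the totals. Motifs, stop codons and shared 75-base stretches (either strand) were read from the annotation's transcript sequences with Python 3.11.15. Amplified fragments are not independent molecules, so limits cover counting error only.

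Alternatives were thresholds of 0.5 and 5 TPM, 1 TPM in at least 1 library, 1 FPKM, 10 expected counts, the second quantification, counts without length scaling, length limits of 800 and 1500 bases, other scalings, no count filter, and each replicate left out.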

Additional observations from a re-analysis of the deposited data

How the results depend on the processing

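Of the counts, shares and sums, each recomputed under its alternatives, 77 values stayed within 1.5-fold (counts) or within 1 SD of the reported value and 20 did not. For the shares and sums, leaving out 1 of 3 libraries cannot move a mean by 1 SD. Those values are among the 77 by construction and say nothing about stability. The count of 10 detected members became 6 at 5 TPM. By class and against 1 detected H1, 2 H2B, 1 H3 and 2 H4 genes, the threshold of 5 TPM left 1 H2B, 0 H3 and 1 H4 gene, and 0.5 TPM gave 2 H3 genes. A threshold of 10 expected counts gave 2 H1, 2 H3 and 1 H4 gene. H3 had 0 detected genes by the second quantification and by 1 FPKM, and H4 had 4 at 1 TPM in at least 1 library. Leaving out 1 replicate moved the H4 count between 2 and 4, the latter without replicate 3, which gained Hist1h4h and Hist1h4m. The summed level was 283 TPM in the second quantification and 218 as CPM, counts without length scaling. On that scale the shares of H1, H2A and H4 were 45.4%, 23.1% and 1.85%. The share in long models was 38.1% at a limit of 1500 bases. Members departing from equal rates numbered 14 of 22 tested in the second quantification, where 63.4% of all genes did. Without replicate 1, 2 or 3 they numbered 10 of 19, 4 of 19 and 7 of 17 tested, against 59.8%, 46.9% and 54.5% of all genes. Apart from the thresholds, which move genes near them by construction, the cause of the values that moved was not tested. No paired analysis was possible because there is a single group.

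Hist1h4k and Hist1h2ap rest on few counts in replicate 1, and identical copies limit the single values of Hist2h2aa1, Hist2h2aa2, Hist2h3c1, Hist2h3c2 and Hist1h2ap. The annotation's models set the length scaling, and ends outside them were not read.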

Other observations

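Further genes of the general poly(A) machinery were expressed, besides those within the list of histone 3′ end factors. All 12 of these further genes were detected, with medians of 15.7, 18.4 and 15.03 TPM in replicates 1, 2 and 3. In the chi-square test 11 of 12 departed, against 68.9% of all genes tested. Pabpc1, the cytoplasmic poly(A)-binding protein gene, led with 632 ± 77.6 TPM (SD, n = 3), followed by the poly(A) polymerase gene Papola at 64.8 ± 9.22 TPM and Pabpn1, the nuclear poly(A)-binding protein gene, at 47.3 ± 8.35 TPM.

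Some detected members overlap other annotated genes. Hist2h2aa1 overlaps Gm20634, a processed transcript on the same strand with 5.29, 2.42 and 5.07 TPM in replicates 1, 2 and 3. Gm20634 had 229.22, 150.35 and 535.9 expected counts, against 142.91, 202.65 and 363.09 for Hist2h2aa1. It also overlaps Hist2h3c1, which was not detected. Hist3h2a overlaps Trim17 on the same strand, with 0.03, 0.06 and 0.13 TPM. An annotated miRNA on the opposite strand of Hist3h2a, Gm44313, was listed at 40.72, 0 and 0 TPM on 1.30, 0 and 1.39 expected counts. Since strand is not given, fragments of Hist3h2a and Gm44313 cannot be told apart. How the authors' counting divided fragments between genes that overlap on the same strand was not examined here.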
